A study of Schizosaccharomyces pombe with 6 samples.

Results

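The genes described here encode the Prp and Cwf splicing factors of the fission yeast Schizosaccharomyces pombe. They were taken as all protein-coding features of the expression table whose name is prp or cwf followed only by digits. This gave 41 genes, 19 prp and 22 cwf, among 7001 listed features, of which 5166 are protein-coding. Of the 41 genes, 9 lie on chromosome I, 22 on chromosome II and 10 on chromosome III. RNA of whole vegetative cells, grown in rich YES medium at 32 °C, was sequenced from 3 strains with 2 libraries each. The mug174Δ strain lacks mug174, which encodes the fission yeast Coilin ortholog, a protein of Cajal bodies. The red1Δ strain lacks red1, which encodes a subunit of MTREC, a nuclear complex that hands RNAs to the exosome for degradation. Both deletions were made by gene replacement in the parental WT strain, and no source used here says how many clones were used. Total RNA was isolated separately for each library, so p-values cover the spread between 2 such isolates a strain.

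Splicing removes introns from pre-mRNA in 2 transesterification steps carried out by the spliceosome, which is built anew on each intron from small nuclear ribonucleoproteins (snRNPs). The U2 snRNP recognises the branch site, the U4/U6.U5 tri-snRNP brings in the future active site, and the Prp19 complex stabilises that site once it has formed. ATPases of the DEAD and DEAH families drive the changes between stages. Many prp genes are named after pre-mRNA processing mutants, and the cwf genes after proteins that copurify with Cdc5, the fission yeast CDC5L. The study asked how loss of Mug174 affects gene expression and splicing, with red1Δ for comparison, and the comparisons below give the mRNA levels of the splicing factors themselves in both strains.

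Many of these genes themselves carry introns. In the RefSeq annotation of assembly ASM294v3, 23 of the 41 genes had introns between coding segments, 40 introns in all, with a median of 51 bases and a range from 38 to 485 bases. All 41 genes were found in RefSeq, and 39 had the same coding coordinates there as in the table (cwf22 and cwf26 did not). The introns of 3 genes are shown because these genes stood apart in the comparisons that follow. cwf15 and prp24 were raised in both deletion strains under both scalings described below, and prp17 was lowered in both after median ratio scaling only. The sequences are from RefSeq, all on the coding strand from 5′ to 3′. Capitals mark the 5′ splice site (the first 6 bases), the final AG, and, within the last 60 bases, the copy nearest the 3′ end of a branch site motif. The motif searched was CTAAC or its variant CTAAT, and likewise the rarer form CTGAC with its variant CTGAT. Overlapping copies of the motif were allowed, and only the coding strand was searched. In prp24 intron 1 the adenine of the marked copy lies 50 bases from the 3′ end, against 7 to 13 bases in the other introns shown. Whether a marked copy serves as a branch site was not tested.
cwf15 intron, chrII:1041900-1041958, minus strand: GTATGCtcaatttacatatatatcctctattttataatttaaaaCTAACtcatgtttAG
prp24 intron 1, chrII:4138852-4138975, minus strand: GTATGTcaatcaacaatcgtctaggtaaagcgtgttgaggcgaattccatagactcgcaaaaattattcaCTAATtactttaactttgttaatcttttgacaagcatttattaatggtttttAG
prp24 intron 2, chrII:4138528-4138585, minus strand: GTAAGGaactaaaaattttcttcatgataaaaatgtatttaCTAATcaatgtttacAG
prp17 intron 1, chrII:2651757-2651797, plus strand: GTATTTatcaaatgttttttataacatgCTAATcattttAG
prp17 intron 2, chrII:2652563-2652601, plus strand: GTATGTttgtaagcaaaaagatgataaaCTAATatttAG
prp17 intron 3, chrII:2653218-2653260, plus strand: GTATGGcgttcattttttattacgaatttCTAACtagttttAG
prp17 intron 4, chrII:2653309-2653347, plus strand: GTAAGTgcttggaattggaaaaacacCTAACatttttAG

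Of the 40 introns, 28 (70.0%) began with GTANGT, against 54.2% of the 5026 coding introns of the annotation. A branch motif of this kind was found in 38 (95.0%), against 75.6% of all coding introns. Copies anywhere in the last 60 bases were counted, so that of prp10 intron 2, 50 bases from the 3′ end, is included. These shares describe the letters and give no measure of splicing. The expression values count reads over coding segments only, so intron retention in these genes was not analysed here.

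The 6 libraries held between 16565908 and 18627129 counted reads. Expression was given as RPKM, the read count of a feature divided by its length and by the library total. The deletions were visible in the values. The mug174 gene had 1 and 0 reads in mug174Δ, 921 and 946 reads in red1Δ, and 739 and 657 reads in WT. The red1 gene had 3478 and 3296 reads in mug174Δ, 1 and 2 reads in red1Δ, and 2457 and 2117 reads in WT.

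Of the 41 genes, 36 had values above 0 and all of these passed the filter of 1 RPKM in at least 2 libraries. The other 5 genes were listed at 0 in all 6 libraries. They were prp4, which encodes a kinase of tri-snRNP proteins, prp22, which encodes the DEAH-box ATPase that releases the mRNA, cwf19, cwf20 and cwf28. In each of them every coding base was also covered by an annotated non-coding RNA on the opposite strand (SPNCRNA.1212 for prp4, SPNCRNA.724 for prp22, SPNCRNA.712 for cwf19, SPNCRNA.1174 for cwf20 and SPNCRNA.1653 for cwf28). Across the table, 339 of 341 protein-coding features wholly covered by other features, of any kind and on either strand, were listed at 0 (99.4%). So were 4 of 538 partly covered ones and 2 of 4287 with no shared bases. No fold change was computed for these 5 genes, and their zeros say nothing of their mRNA level. No source used here says how shared bases or strand were handled in the counting.

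The opposite-strand features kept reads of their own on bases outside the coding segments, mostly few. SPNCRNA.1174, over cwf20, had 17 and 8 reads in mug174Δ, 65 and 64 reads in red1Δ, and 8 and 4 reads in WT. The red1Δ libraries were the highest. SPNCRNA.1212, over prp4, had 180 and 210 reads in mug174Δ, 276 and 261 reads in red1Δ, and 130 and 100 reads in WT, with no overlap between the strains. Of the 259 unshared bases of SPNCRNA.1174, 134 lie inside the RefSeq gene of cwf20, and of the 743 of SPNCRNA.1212, 517 lie inside that of prp4. Reads there could come from either strand's RNA and cannot be told apart.

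A further 5 genes, prp1, prp2, prp16, cwf4 and cwf10, shared between 23.5% and 52.0% of their coding bases with an opposite-strand feature. Their RPKM is divided by the full coding length. Over unshared bases only, an alternative chosen after seeing the data, the mean WT value of prp16 was 22.8 RPKM, against 17.5 RPKM as deposited, and that of cwf10 was 47.8 RPKM, against 24.5 and 21.5 RPKM in its WT libraries as deposited. The mean of prp1 was 61.0 RPKM, against 32.6 RPKM as deposited, that of prp2 97.5 RPKM, against 66.1 RPKM, and that of cwf4 68.1 RPKM, against 32.6 RPKM. Their levels relative to other genes are therefore uncertain, whereas a fold change between strains is the same on both scales apart from the pseudocount.

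**Figure D1:**
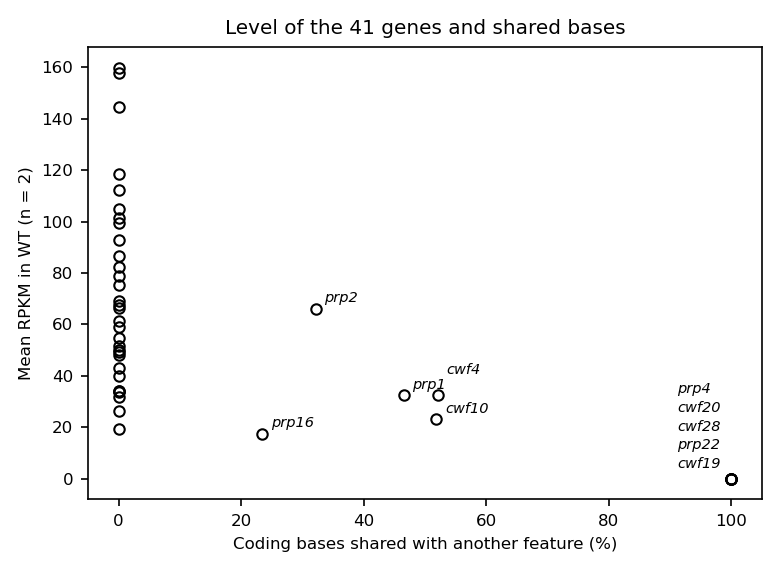
Mean RPKM in WT (vertical axis, n = 2 libraries) against the percentage of coding bases shared with another feature (horizontal axis), 1 point for each of the 41 genes. The 5 genes at 100% all sit at 0 RPKM, and the 5 partly covered genes are named.

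In WT the 36 genes had a median level of 60.1 RPKM, beside 59.9 RPKM for all protein-coding features above 0. Their levels lay between 17.5 and 160 RPKM, a 9.16-fold range. Of the 36, 29 lay between the quartiles of the protein-coding features (29.0 and 129 RPKM), 3 above and 4 below. The highest was prp19, which encodes the ubiquitin ligase after which the Prp19 complex is named. It had 169 and 167 RPKM in mug174Δ, 161 and 171 RPKM in red1Δ, and 164 and 156 RPKM in WT. Next came cwf7, for a small core subunit of the same complex (Snt309 in budding yeast), and cwf21, for a Cwc21 family protein. By RPKM as deposited, the lowest were prp16, for the DEAH-box ATPase that remodels the spliceosome between the steps, cwf11, for an Aquarius family protein, and cwf10, for the U5 snRNP GTPase. This lower end, with the range and the count below the quartile, rests on full coding length. Over unshared bases cwf11 (19.1 RPKM) was below prp16 (22.8 RPKM) and prp11 (26.4 RPKM), and cwf10 (47.8 RPKM) was not among the lowest. In the order of WT levels, 23 of 35 neighbouring genes had overlapping library values, so most neighbours are not separated. All levels rest on at least 440 and at most 5243 reads a gene and library.

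**Figure D2:**
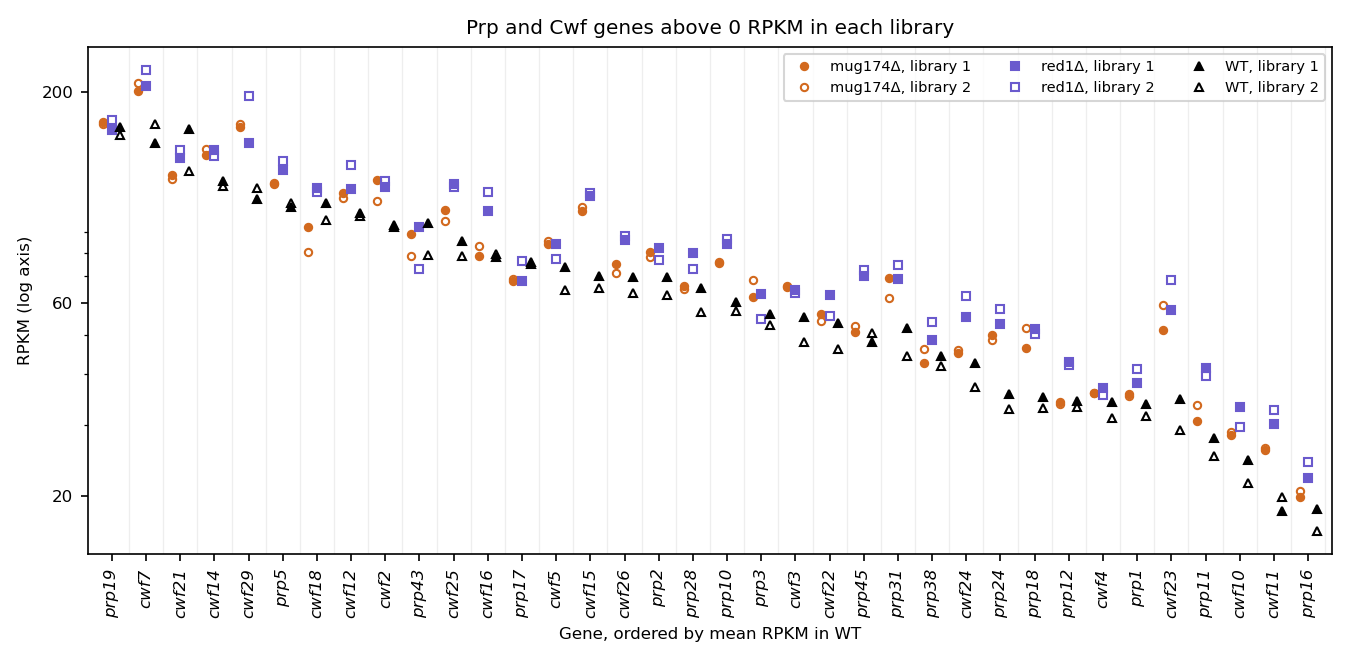
RPKM (vertical log axis) of the 36 Prp and Cwf genes above 0 in each of the 6 libraries, with genes ordered by their mean in WT. Circles are mug174Δ, squares red1Δ and triangles WT, filled for library 1 and open for library 2. cwf23, cwf15 and prp24 show both deletion strains well above WT, while prp19 and prp43 show the 3 strains close together.

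In mug174Δ, 11 of the 36 genes were raised against WT and 0 were lowered (limma on log2(RPKM + 0.5), adjusted p under 0.05 over 5949 tested features). The raised genes were cwf15, prp24, cwf23, prp18, prp10, cwf11, cwf7, cwf29, prp31, cwf3 and cwf14. This was 30.6% of the genes, where 19.8% of all tested features were raised and 5.53% were lowered. The median log2 fold change was 0.23, beside 0.18 over all tested features. The deposited values thus moved upwards for the table as a whole. After median ratio scaling, which sets that median near 0 (0.01), 3 genes were raised (cwf15, prp24 and cwf23), where 9.77% of all features were, and 2 were lowered (cwf18 and prp17), where 10.1% of all features were. The 36 genes then had a median of 0.06. In the deposited values, without that scaling, 28 of the 36 genes had both mug174Δ libraries above both WT libraries, 3 had both below and 5 overlapped. Over all 5949 tested features, 3265 (54.9%) were above, 1206 were below and 1478 overlapped. Leaving out any of the mug174Δ or WT libraries left 0 of the 36 genes called, and between 14 and 70 raised features over the whole table.

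In red1Δ, 26 of the 36 genes were raised against WT and 0 were lowered. This was 72.2% of the genes, where 48.4% of all features were raised and 7.33% were lowered. Here and in mug174Δ, the median SE was 0.093 over the 36 genes and 0.126 over all tested features. Whether the larger shares raised follow from the smaller SE was not tested. The median log2 fold change of the 36 genes was 0.34, beside 0.35 over all tested features, so as a group they moved no more than the table did. After median ratio scaling 4 were raised (cwf15, prp24, cwf23 and cwf11), where 18.1% of all features were, and 3 were lowered (prp17, prp19 and cwf21), where 19.0% of all features were. The median of the 36 genes was then -0.02. Without either WT library, which leaves WT with 1 library, fewer of these genes and fewer features over the whole table were raised as deposited. The comparisons of mug174Δ and red1Δ share their WT libraries, so their calls are not independent of each other.

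**Figure D3:**
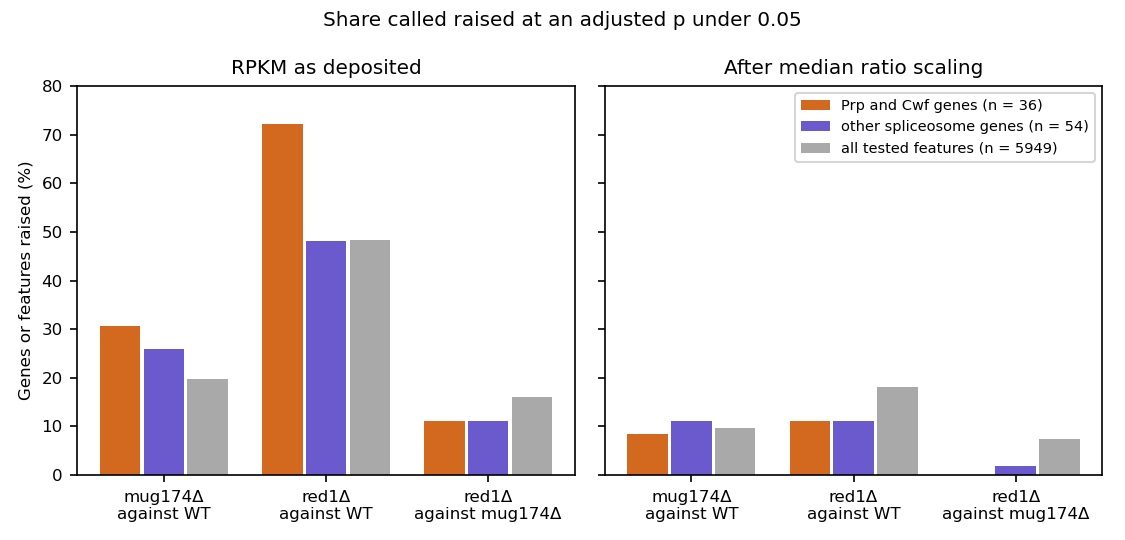
Percentage of genes or features called raised (vertical axis) in the 3 comparisons, for the 36 Prp and Cwf genes, 54 other spliceosome genes and all 5949 tested features. The left panel uses RPKM as deposited and the right panel the values after median ratio scaling, where the Prp and Cwf share falls below that of all features in each comparison.

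Both deletion strains were above WT in every library for the 3 genes called under both scalings. cwf23, for a J-domain protein (Cwc23 in budding yeast), had 51.4 and 59.2 RPKM in mug174Δ, 57.6 and 68.3 RPKM in red1Δ, and 34.7 and 29.2 RPKM in WT. It rose by a log2 fold change of 0.79 ± 0.14 (SE) in mug174Δ (adjusted p = 0.0154) and 0.97 ± 0.14 in red1Δ (adjusted p = 0.00386), the largest change among the 36 genes in both. With median ratio scaling both changes were 0.61 (adjusted p = 0.0211 and 0.011). The neighbouring gene on chromosome III, prp11, for a DEAD-box ATPase of prespliceosome formation, lies 1547 bases upstream on the same strand. It had 30.5 and 33.6 RPKM in mug174Δ, 41.5 and 39.5 RPKM in red1Δ, and 27.7 and 25.1 RPKM in WT, and was called in red1Δ only (0.61 ± 0.10, adjusted p = 0.00571, not called after median ratio scaling).

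cwf15, for a Cwc15 family protein associated with the Prp19 complex, had 102 and 104 RPKM in mug174Δ, 110 and 112 RPKM in red1Δ, and 70.0 and 65.4 RPKM in WT. The libraries of each strain lay close together and no strain overlapped another. It rose by 0.60 ± 0.076 in mug174Δ (adjusted p = 0.00864) and by 0.71 ± 0.076 in red1Δ (adjusted p = 0.00197). Median ratio scaling gave 0.43 (adjusted p = 0.0199) and 0.35 (adjusted p = 0.0176). prp24, for the U6 snRNP assembly factor, had 50.0 and 48.7 RPKM in mug174Δ, 53.4 and 57.9 RPKM in red1Δ, and 35.7 and 32.8 RPKM in WT. It rose by 0.52 ± 0.092 in mug174Δ (adjusted p = 0.0154) and by 0.69 ± 0.092 in red1Δ (adjusted p = 0.00326). With median ratio scaling these were 0.35 (adjusted p = 0.0351) and 0.33 (adjusted p = 0.0235).

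The counts by role below are to be read beside the 19.8% of all tested features raised in mug174Δ and the 48.4% raised in red1Δ, and most of them did not hold after median ratio scaling. The U2 snRNP and U2AF genes recognise the 3′ end of the intron and the branch site. Of the 4 tested, 1 was raised in mug174Δ (prp10) and 4 in red1Δ (prp2, prp10, prp11 and prp12), and none was called after median ratio scaling. prp10, for the SF3b subunit that contacts the branch region (SF3B1 in humans), had 76.1 and 75.2 RPKM in mug174Δ, 83.9 and 86.6 RPKM in red1Δ, and 60.4 and 57.5 RPKM in WT. The change was 0.36 ± 0.075 in mug174Δ (adjusted p = 0.0232) and 0.53 ± 0.075 in red1Δ (adjusted p = 0.0038), and the 3 strains did not overlap. The difference of red1Δ from mug174Δ was not called (0.17 ± 0.075, adjusted p = 0.151). prp2, for the large subunit of U2AF, which binds the polypyrimidine tract, had 80.5 and 78.0 RPKM in mug174Δ, 82.2 and 76.8 RPKM in red1Δ, and 69.6 and 62.7 RPKM in WT. Both deletion strains were above WT, with 0.26 ± 0.088 in mug174Δ (adjusted p = 0.0763) and 0.27 ± 0.088 in red1Δ (adjusted p = 0.0442). The opposite-strand feature over prp2, SPNCRNA.1405, had 403 and 435 reads in mug174Δ, 425 and 316 reads in red1Δ, and 375 and 313 reads in WT, and all of its 240 unshared bases lie inside the RefSeq gene of prp2.

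The tri-snRNP and U5 genes bring the U6 snRNA to the 5′ splice site. Of the 6 tested, 2 were raised in mug174Δ (prp24 and prp31) and 4 in red1Δ (prp1, prp24, prp31 and cwf10). Median ratio scaling left 1 raised in each strain, prp24. The U4 snRNP gene prp31 (PRPF31 in humans) had 69.2 and 61.9 RPKM in mug174Δ, 68.6 and 74.6 RPKM in red1Δ, and 51.9 and 44.5 RPKM in WT. cwf10, for the U5 GTPase (Snu114 in budding yeast), had 28.3 and 28.8 RPKM in mug174Δ, 33.2 and 29.7 RPKM in red1Δ, and 24.5 and 21.5 RPKM in WT. Both deletion strains were above WT, and the change of cwf10 was 0.31 ± 0.11 in mug174Δ (adjusted p = 0.0908) and 0.44 ± 0.11 in red1Δ (adjusted p = 0.0191). prp3 and prp38, for a U4/U6 snRNP protein and a B complex protein, were called in neither strain, with log2 fold changes between 0.04 and 0.25.

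Of 13 genes of the Prp19 complex and its associated proteins, 5 were raised in mug174Δ (cwf3, cwf7, cwf11, cwf14 and cwf15). In red1Δ 9 were raised, which added cwf2, cwf12, prp5 and prp45. Median ratio scaling left 1 raised (cwf15) and 1 lowered (cwf18) in mug174Δ, and 2 raised (cwf11 and cwf15) and 1 lowered (prp19) in red1Δ. Of these, cwf2 encodes an RNA-binding protein near the U6 snRNA of the active site, cwf3 a TPR protein (Syf1 in budding yeast), cwf12 an Isy1 family protein, cwf14 a Bud31 family protein and prp5 a WD repeat protein (PLRG1 in humans). cwf7 had 202 and 211 RPKM in mug174Δ, 206 and 227 RPKM in red1Δ, and 149 and 166 RPKM in WT. Its change was 0.39 ± 0.092 in mug174Δ (adjusted p = 0.0316) and 0.45 ± 0.092 in red1Δ (adjusted p = 0.00956). cwf11 had 26.0 and 26.2 RPKM in mug174Δ, 30.1 and 32.6 RPKM in red1Δ, and 18.3 and 19.8 RPKM in WT, with no overlap of strains. It rose by 0.44 ± 0.10 in mug174Δ (adjusted p = 0.0281) and by 0.70 ± 0.10 in red1Δ (adjusted p = 0.00397), and in red1Δ it was also called after median ratio scaling (0.35, adjusted p = 0.0334). Its difference between red1Δ and mug174Δ was not called (0.26 ± 0.10, adjusted p = 0.119).

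The most abundant member of this complex in WT did not pass the test. prp19 had log2 fold changes of 0.07 ± 0.075 in mug174Δ (adjusted p = 0.508) and 0.05 ± 0.075 in red1Δ (adjusted p = 0.581), and after median ratio scaling it was lowered in red1Δ (-0.31, adjusted p = 0.0216) and not called in mug174Δ (-0.11). Its direction in mug174Δ and red1Δ is therefore set by the scaling. cwf18 had 92.9 and 80.3 RPKM in mug174Δ, 115 and 113 RPKM in red1Δ, and 106 and 96.2 RPKM in WT. Its change in mug174Δ was -0.23 ± 0.10 (adjusted p = 0.14), or -0.40 after median ratio scaling (adjusted p = 0.0465), and in red1Δ 0.18 ± 0.10 (adjusted p = 0.18). cwf4 and cwf5, for a TPR protein and an RNA-binding protein of the complex (Clf1 and Ecm2 in budding yeast), were called in neither strain.

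The remaining ATPases act at activation, between the catalytic steps and at release. Of the 3 tested, none was raised in mug174Δ and 2 in red1Δ (prp16 and prp28, for the DEAD-box ATPase that hands the 5′ splice site to U6), and none was called after median ratio scaling. prp16 had 19.8 and 20.6 RPKM in mug174Δ, 22.1 and 24.2 RPKM in red1Δ, and 18.6 and 16.4 RPKM in WT. Both deletion strains were above WT, by 0.21 ± 0.12 in mug174Δ (adjusted p = 0.221) and 0.40 ± 0.12 in red1Δ (adjusted p = 0.0292). prp43, for the DEAH-box ATPase of spliceosome disassembly, had 88.9 and 78.4 RPKM in mug174Δ, 92.7 and 72.8 RPKM in red1Δ, and 94.5 and 79.1 RPKM in WT, so that all strains overlapped.

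The step factors enter the assembled spliceosome around the catalytic steps. Of 7 genes, 1 was raised in mug174Δ (prp18) and 4 in red1Δ (prp18, cwf16, cwf24 and cwf25). Median ratio scaling left 0 raised in either strain, with 1 lowered in mug174Δ (prp17) and 2 in red1Δ (prp17 and cwf21). prp18, for a factor of the second step, had 46.3 and 52.0 RPKM in mug174Δ, 51.7 and 50.2 RPKM in red1Δ, and 35.2 and 33.0 RPKM in WT, and rose by 0.52 ± 0.096 in mug174Δ (adjusted p = 0.0169) and 0.57 ± 0.096 in red1Δ (adjusted p = 0.00562). cwf25, for a factor of the first step, had 102 and 95.6 RPKM in mug174Δ, 118 and 117 RPKM in red1Δ, and 85.7 and 78.7 RPKM in WT. Its change was 0.27 ± 0.082 in mug174Δ (adjusted p = 0.0611) and 0.51 ± 0.082 in red1Δ (adjusted p = 0.00502).

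prp17, for another factor of the second step (CDC40 in humans), was among the few genes with negative fold changes. It had 68.2 and 68.8 RPKM in mug174Δ, 68.1 and 76.5 RPKM in red1Δ, and 75.7 and 75.2 RPKM in WT. Both mug174Δ libraries were below WT, and the red1Δ libraries lay on either side of it. As deposited, the change was -0.14 ± 0.086 in mug174Δ (adjusted p = 0.262) and -0.06 ± 0.086 in red1Δ (adjusted p = 0.552). With median ratio scaling it was lowered in both, at -0.31 in mug174Δ (adjusted p = 0.0354) and -0.42 in red1Δ (adjusted p = 0.0085). cwf21 had 125 and 122 RPKM in mug174Δ, 137 and 144 RPKM in red1Δ, and 162 and 127 RPKM in WT, where the WT libraries were far apart. Its change was -0.22 ± 0.12 in mug174Δ (adjusted p = 0.224) and -0.03 ± 0.12 in red1Δ (adjusted p = 0.851). cwf22, for a Cwc22 family protein, was called in neither strain.

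The RES complex genes cwf26 and cwf29 encode relatives of budding yeast Bud13 and Snu17. Neither gene was called after median ratio scaling. cwf29 had 164 and 166 RPKM in mug174Δ, 150 and 196 RPKM in red1Δ, and 109 and 116 RPKM in WT. It was raised in mug174Δ (0.55 ± 0.13, adjusted p = 0.0319) and in red1Δ (0.61 ± 0.13, adjusted p = 0.0119), and cwf26 was raised in red1Δ only (0.39 ± 0.083, adjusted p = 0.0112). A gene called in red1Δ alone need not differ between the deletion strains, which are compared directly below. There, a gene that is not called is not shown to be equal in both.

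**Figure D4:**
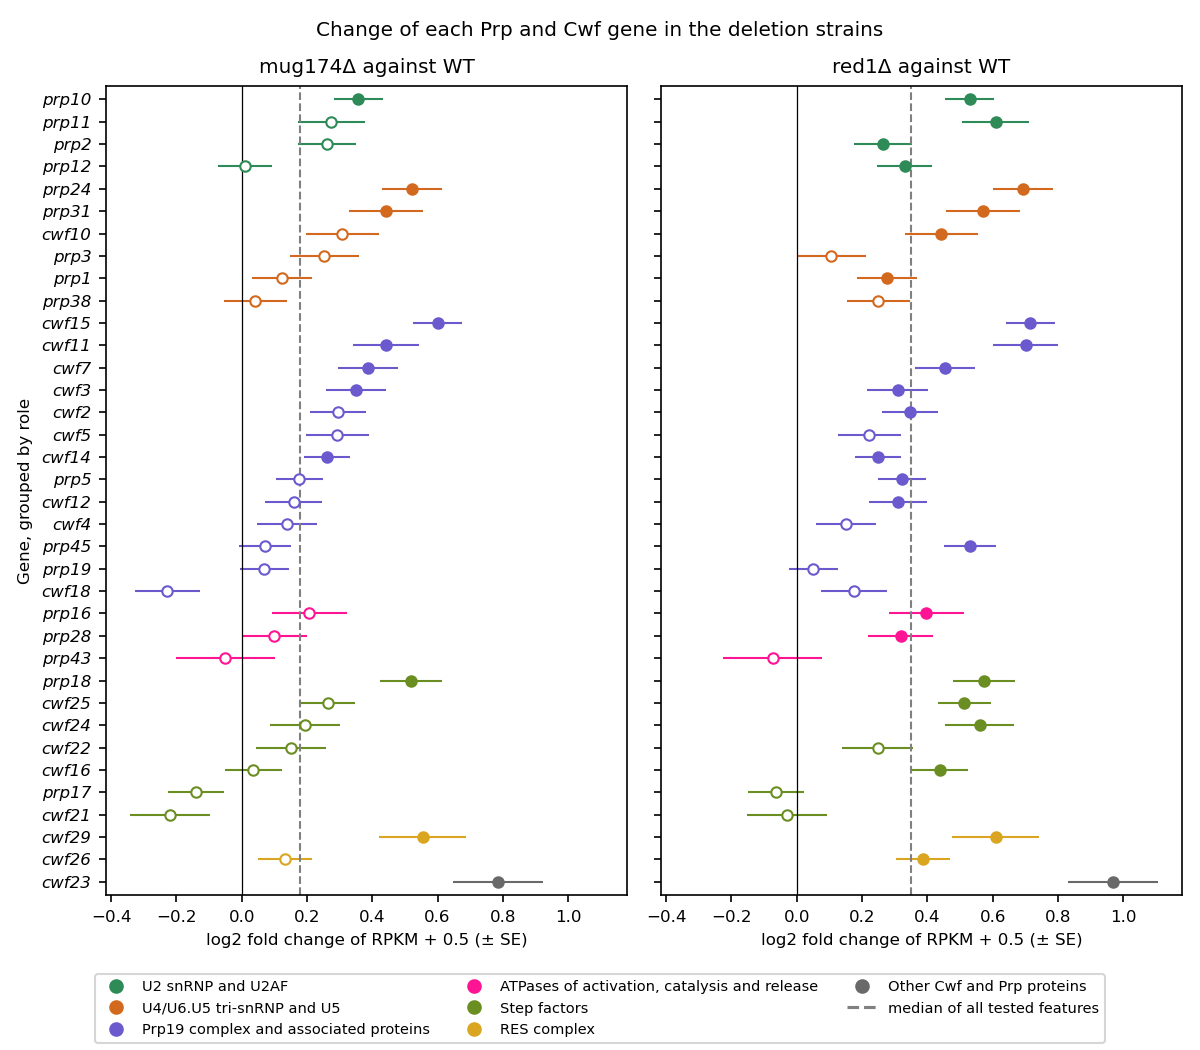
log2 fold change (horizontal axis, ± SE of the fit, n = 2 libraries a strain) of the 36 genes in mug174Δ (left) and red1Δ (right) against WT, grouped and coloured by role. Filled points passed an adjusted p of 0.05, and the dashed line is the median of all tested features (0.18 on the left, 0.35 on the right). cwf23 lies farthest to the right in both panels, and prp17, cwf21 and prp43 lie left of 0 in both.

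Set directly against mug174Δ, red1Δ had 4 of the 36 genes raised and 0 lowered, where 16.1% of all features were raised and 3.28% were lowered. The median log2 fold change was 0.15, beside 0.18 over all features. None was called in either direction with median ratio scaling, where 7.38% of all features were raised and 5.65% were lowered. The 4 genes were prp45, cwf16, cwf18 and prp12. prp45, for a SKIP family protein (SNW1 in humans), had 70.0 and 72.6 RPKM in red1Δ, against 50.8 and 52.7 RPKM in mug174Δ, with 48.0 and 50.5 RPKM in WT. It was 0.46 ± 0.080 higher in red1Δ (adjusted p = 0.0177), and 0.27 higher after median ratio scaling (adjusted p = 0.0823).

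cwf16, for a factor of the first step of the Yju2 family, had 101 and 113 RPKM in red1Δ, against 78.7 and 83.1 RPKM in mug174Δ, with 78.3 and 79.5 RPKM in WT (0.40 ± 0.086 between the deletion strains, adjusted p = 0.0304). prp12, for an SF3b subunit (SF3B3 in humans), had 42.89 and 42.04 RPKM in red1Δ, against 34.2 and 33.7 RPKM in mug174Δ, with 34.3 and 33.1 RPKM in WT (0.32 ± 0.083, adjusted p = 0.0461). For cwf18 the difference was 0.40 ± 0.10 (adjusted p = 0.0421). The mug174Δ libraries of cwf16 and prp12 overlapped those of WT, and those of prp45 lay just above them. No gene stayed called in every fit that left out a mug174Δ or red1Δ library, where 1 of the strains compared keeps 1 library. The number of raised features over the whole table changed in those fits too. Without WT library 1 or 2, only prp45 was called, where 407 and 415 of all features were raised.

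The genes were also split by whether they carry introns themselves. In mug174Δ, 8 of 20 genes with introns between coding segments were raised and 3 of 16 without, with medians of 0.28 and 0.16. The same shares over all protein-coding features were 22.2% and 19.3%. In red1Δ, 14 of 20 genes with introns and 12 of 16 without were raised, with medians of 0.37 and 0.33, beside 46.7% and 46.6% of all protein-coding features. With median ratio scaling, 2 genes with introns and 1 without were raised in mug174Δ, and 1 of each kind was lowered. In red1Δ, 2 of each kind were raised, and 3 with introns and 0 without were lowered. Under the same scaling, 205 of 2252 protein-coding features with introns and 233 of 2499 without were raised in mug174Δ. There, 281 and 257 were lowered. In red1Δ, 285 with introns and 340 without were raised, and 557 and 493 were lowered. Across the 36 genes, Pearson's r of the log2 fold change with log2 coding length was 0.03 in mug174Δ and 0.05 in red1Δ. With the number of introns it was -0.01 and -0.25. Spearman's rank correlation with the number of introns was 0.14 in mug174Δ and -0.13 in red1Δ, and with coding length 0.02 and 0.08. These are descriptions across genes measured in the same libraries.

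Other spliceosome genes, from a list of 80 names of which 58 were matched and 54 tested, were counted in the same way. In mug174Δ, 14 were raised (25.9%, beside 19.8% of all features) and 0 lowered. In red1Δ, 26 were raised (48.1%, beside 48.4% of all features and 72.2% of the Prp and Cwf genes) and 1 lowered, and no test of the difference between the lists was made. After median ratio scaling 6 were raised in each strain, and 2 were lowered in mug174Δ and 7 in red1Δ. Of all features, 9.77% were then raised and 10.1% lowered in mug174Δ, and 18.1% raised and 19.0% lowered in red1Δ. The raised genes with the smallest p included lsm6 and lsm8, for subunits of the Lsm ring that binds the 3′ end of U6 snRNA. lsm6 had 191 and 187 RPKM in mug174Δ, 219 and 232 RPKM in red1Δ, and 105 and 118 RPKM in WT (0.76 ± 0.086, adjusted p = 0.00708, and 1.01 ± 0.086, adjusted p = 0.00107). lsm8 had 75.0 and 70.8 RPKM in mug174Δ, 78.5 and 78.3 RPKM in red1Δ, and 46.8 and 45.3 RPKM in WT. Both deletion strains were above WT for both genes. For lsm8 the changes were 0.66 ± 0.077 and 0.76 ± 0.077 (adjusted p = 0.00757 and 0.00178).

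snu23, for a tri-snRNP protein, had 66.1 and 57.1 RPKM in mug174Δ, against 34.8 and 31.8 RPKM in WT (0.87 ± 0.11, adjusted p = 0.00864). Its red1Δ libraries, at 59.9 and 65.7 RPKM, were also above WT. rsd1 had 168 and 176 RPKM in red1Δ, against 55.3 and 52.5 RPKM in WT (1.66 ± 0.076, adjusted p = 0.000182). It was also raised in mug174Δ, with 83.1 and 80.4 RPKM (0.60 ± 0.076, adjusted p = 0.00867). Median ratio scaling kept that call in mug174Δ (0.42, adjusted p = 0.0173). ntr2 was the one gene of this list lowered as deposited, with 44.6 and 39.1 RPKM in red1Δ, against 54.6 and 54.4 RPKM in WT (-0.38 ± 0.11, adjusted p = 0.0268). As deposited ntr2 was raised in mug174Δ, with 67.0 and 76.5 RPKM (0.39 ± 0.11, adjusted p = 0.0453). After median ratio scaling that rise was not called (0.22, adjusted p = 0.269). Its direct difference as deposited, red1Δ minus mug174Δ, was -0.77 ± 0.11 (adjusted p = 0.0111). uap2, whose product associates with the U2 snRNP and whose gene the study overexpressed in mug174Δ cells, had 83.0 and 88.0 RPKM in mug174Δ, 79.2 and 76.4 RPKM in red1Δ, and 74.0 and 83.6 RPKM in WT. Its change was called in neither strain as deposited and was -0.38 after median ratio scaling in red1Δ (adjusted p = 0.036).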

How the data were processed

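RNA-seq libraries of mug174Δ, red1Δ and WT cells (2 each) were used, grouped by the labels' titles. The authors deposited RPKM values with no scaling factors between libraries. The study's methods give poly(dT) enrichment and HISAT2 on ASM294v2 for the reads, whereas the labels give rRNA depletion with a directional kit and the tools in the submitters' processing notes are STAR 2.5.3a, StringTie 1.3.1c and FastQC 0.11.6. Library type and aligner behind the table are therefore uncertain, and no source used here names the read counter. The deposited table also holds the authors' fold changes and p-values against WT, which were not used. RPKM times length came out as whole reads for 100% of values (within 0.01 reads), which gave the depth of 16565908 to 18627129 reads. Depth covers counting error only.

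All 6 libraries entered 1 linear model of log2(RPKM + 0.5) in limma 3.58.1 under R 4.3.3, with a mean for each strain and moderated variances that follow a mean trend. Features needed 1 RPKM or more in 2 or more libraries, which 5949 met, and 2-sided p-values were adjusted over these by Benjamini and Hochberg. A feature was called at an adjusted p under 0.05. The fit was also run on simulated reads, with known changes in equal numbers up and down. That simulation held no shift of the whole table between strains, so it does not test the scaling. Fold changes are on the log2(RPKM + 0.5) scale. With 2 libraries against 2, an exact permutation test of 1 gene cannot go below p = 0.333, so none was used. The members, lists and roles were chosen with earlier results of these data known, and roles come from textbook knowledge. Full values are given for the 5 raised and 5 lowered genes with the smallest p in each comparison, the 3 highest and 3 lowest in WT, and genes the study names; of other spliceosome genes, the 3 with the smallest p in each direction against WT, and uap2. prp31, prp11, cwf26, cwf29 and prp43 were added after their values were seen. From the list of other spliceosome genes, 2 names that belong to other proteins in fission yeast were removed. Introns were read from RefSeq ASM294v3 at that annotation's own coordinates.

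Alternatives were other pseudocounts and filters, median ratio scaling, scaling to the summed RPKM of protein-coding features outside ribosomal proteins, no trend, voom weights on whole reads, a replicate block, fits of the compared strains alone, a fold threshold, and leaving out each library. Level over unshared bases was added after seeing the data.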

Additional observations from a re-analysis of the deposited data

How the results depend on the processing

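The main limit is the scaling between libraries. Both deletion strains have a higher median over the whole table than WT, and with 2 libraries a strain the counts also rest on single libraries. The cause of these dependences was not tested. After median ratio scaling the raised Prp and Cwf genes numbered 3 in mug174Δ and 4 in red1Δ against WT, and 0 in red1Δ against mug174Δ, with 2 and 3 lowered against WT. Scaling to the summed RPKM of protein-coding features gave 4, 14 and 4 raised and medians over all features of 0.05, 0.21 and 0.17. Of all 5949 features, 651, 2013 and 1016 were raised under it, and 525, 642 and 202 were lowered. It lowered 0 of the 36 genes in each comparison, so their lowered calls were made under median ratio scaling only. The study's fold threshold gave 2, 6 and 0, where 844, 1742 and 925 of all 5949 features passed it upwards. Without a trend, 6 genes were raised in mug174Δ against WT and 2 in red1Δ against mug174Δ, where 970 and 816 of all features were. A fit of only those 2 deletion strains gave 1, where 412 of 5923 features were raised. Leaving out 1 library in turn gave 0 to 15 raised genes in mug174Δ against WT, 10 to 24 in red1Δ against WT and 0 to 3 in red1Δ against mug174Δ, and moved the mug174Δ median relative to all features between 0.0075 and 0.10. Pseudocounts of 0.1 and 1 RPKM, other filters and voom weights left the main counts of raised genes within 1.5 times.

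Some log2 fold changes changed sign. After median ratio scaling these were prp45 (-0.10), cwf16 (-0.14), prp12 (-0.16), prp19 (-0.11) and uap2 (-0.055) in mug174Δ against WT, and cwf18 (-0.19), prp12 (-0.028), prp19 (-0.31) and prp2 (-0.10) in red1Δ against WT. In red1Δ against mug174Δ they were cwf15 (-0.072), prp24 (-0.016), cwf23 (-0.0028), prp18 (-0.13), prp10 (-0.015), cwf7 (-0.12), cwf10 (-0.050), prp2 (-0.18), prp17 (-0.11), lsm8 (-0.082) and snu23 (-0.16). Scaling to protein-coding features did so for prp45 (-0.063), cwf16 (-0.10), prp12 (-0.12), prp19 (-0.066) and uap2 (-0.016) in mug174Δ against WT, prp19 (-0.092) in red1Δ against WT and prp2 (-0.0037) in red1Δ against mug174Δ. When single libraries were left out, values ran from -0.0030 to 0.074 for cwf16 and -0.014 to 0.037 for prp12 in mug174Δ against WT, and from -0.21 to 0.15 for cwf21, -0.15 to 0.020 for prp17 and -0.10 to 0.072 for uap2 in red1Δ against WT. In red1Δ against mug174Δ they ran from -0.028 to 0.14 for prp18, -0.045 to 0.052 for prp2, -0.076 to 0.13 for snu23, -0.061 to 0.025 for prp19 and -0.0067 to 0.16 for prp17.

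The labels do not say that replicate numbers pair the libraries, and the correlations of same-numbered deviations were 0.19, 0.23 and 0.06. With the replicate number as a block, 13 genes were raised in mug174Δ against WT, 26 in red1Δ against WT and 3 in red1Δ against mug174Δ, and 0 were lowered. Of all 5949 features, 1382, 2994 and 1081 were raised and 381, 486 and 280 lowered.

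Levels over unshared bases, an alternative chosen after seeing the data, were 97.5 RPKM for prp2, 68.1 for cwf4, 61.0 for prp1, 47.8 for cwf10 and 22.8 for prp16 in WT.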
